A study of Homo sapiens with 21 samples.

Results

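Messenger RNA of 10 genes of extracellular matrix breakdown was followed in HCC1806 cells. HCC1806 is an established human line of triple-negative breast cancer, a class defined by the absence of hormone receptors and of HER2 amplification. The genes were 6 matrix metalloproteinases (MMP1, MMP7, MMP9, MMP10, MMP13 and MMP14), the inhibitors TIMP1 and TIMP2, the protease PLAU and its receptor PLAUR. They were taken by symbol from the 60668 gene identifiers that both count tables list, and each symbol matched a single identifier. The 21 libraries fell into 7 groups of 3. In the first table, 3xSR, labelled for joint overexpression of SRSF2, SRSF3 and SRSF7, and MYC-OE, labelled for overexpression of MYC, stood beside 3xCTL, labelled only as control. In the second, SRSF2-OE, SRSF3-OE and SRSF7-OE, each labelled for the 1 gene in its name, stood beside 1xCtrl, labelled as a control for a single plasmid. SRSF2, SRSF3 and SRSF7 bind RNA and act in the splicing of transcripts, whereas MYC controls the transcription of many genes of growth. The vector, its promoter and whether a line is a clone are not given in the sources used here. All cells grew as adherent cultures and were collected near confluence, and no other agent is named. The labels do not say whether the replicates of a group came from separate cultures, so p-values measure the spread between these libraries, which may be technical.

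Matrix metalloproteinases are zinc-dependent enzymes that are made as inactive precursors and cut collagens and other matrix proteins once activated. TIMP proteins bind the active enzymes and block them. In the plasminogen branch, PLAU (urokinase) binds PLAUR on the cell surface and turns plasminogen into plasmin, a broad protease that breaks down fibrin and activates several metalloproteinase precursors. In breast tumours these genes are known for their part in invasion, and many of the secreted proteases are made by stromal cells as well as by tumour cells.

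Total counts per library ranged from 143 to 303 mega counts, so that 3 counts, taken as the detection floor, stood for 0.00947 to 0.0210 CPM (counts per 1 mega count, with library sizes scaled by TMM). Such floors cover counting error only. The level of SRSF2 was no higher than the control's in libraries with the label SRSF2-OE (log2 fold change -0.16, SE 0.0640, adjusted p in edgeR = 0.0980) or 3xSR (-0.06, SE 0.0516, adjusted p in edgeR = 0.389), so each direction given for these is that of libraries with that label. SRSF3, SRSF7 and MYC were higher in each line labelled with them, by 0.26 to 0.90 on the log2 scale. The same genes were also higher in lines not labelled with them. MYC was higher by 0.75 in 3xSR (adjusted p in edgeR = 4.01e-07), 0.26 in SRSF3-OE and 0.27 in SRSF7-OE. In the libraries labelled SRSF2-OE, SRSF3 was higher by 0.30 and SRSF7 by 0.24. SRSF2 was lower in MYC-OE (-0.48, adjusted p in edgeR = 2.32e-05) and in SRSF7-OE (-0.38, adjusted p in edgeR = 0.00180). The 8 epithelial and basal markers were all above 1 CPM and summed to between 4670 and 6372 CPM. Of the luminal receptors, ESR1 was at 6.49 to 11.5 CPM, while the median of PGR was under 0.1 CPM. Endothelial markers summed to 0.137 to 1.28 CPM and leukocyte markers to 1.84 to 4.50 CPM. The summed fibroblast list (7 genes) was higher in the controls, at 47.5 to 49.7 CPM in 3xCTL and 28.6 to 33.1 in 1xCtrl, than in their lines (15.4 to 26.0). COL1A1 and LUM made up most of it, and the median of PDGFRA was 0.106 CPM; its part in the results below was not tested. The library 1xCtrl replicate 2 stood apart from the other 2 of its group: its log2 levels differed from their mean by a median of 0.285 over genes and followed gene GC content (r = 0.47, across genes). In it TIMP1 was at 1.43 times, PLAUR and MMP14 each at 1.24 times, MMP1 at 0.799 times and MMP13 at 0.774 times the mean of the other 2. To a lesser degree 3xCTL replicate 2 (median 0.209, r = -0.33) and 1xCtrl replicate 3 (0.214, r = -0.35) followed GC content too. Without 3xCTL replicate 2, 9204 genes were called in 3xSR in place of 6727. Log2 fold changes themselves followed GC content in 3xSR (r = -0.19) and SRSF3-OE (r = -0.15).

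Against their controls, 6 of the 10 genes changed in the libraries labelled 3xSR (4 higher, 2 lower) and 7 in MYC-OE (6 higher, 1 lower). Among the single lines, 6 changed in the libraries labelled SRSF2-OE (4 higher, 2 lower), 5 with SRSF3-OE (3 higher, 2 lower) and 3 with SRSF7-OE (2 higher, 1 lower). A change here means an adjusted p under 0.05 in edgeR's quasi-likelihood test over all genes of the table. For comparison, the same test called 29.0% of all 23160 genes tested in 3xSR, 35.3% in MYC-OE, 23.5% of 24362 for SRSF2-OE, 29.2% for SRSF3-OE and 17.3% for SRSF7-OE. Split by direction (higher, then lower), it called 15.3% and 13.7% in 3xSR, 18.0% and 17.3% in MYC-OE, 11.6% and 11.9% for SRSF2-OE, 15.0% and 14.1% for SRSF3-OE, and 9.03% and 8.26% for SRSF7-OE. CPM did not overlap between line and control for 6 of the 10 genes in 3xSR (40.2% of all genes), 9 in MYC-OE (48.3%), 7 for SRSF2-OE (35.9%), 6 for SRSF3-OE (39.8%) and 4 for SRSF7-OE (32.6%). All 10 genes were tested in both tables. Their median log2 fold change was 0.36 in 3xSR, 0.82 in MYC-OE, 0.32 for SRSF2-OE, 0.35 for SRSF3-OE and 0.23 for SRSF7-OE, where the median over all genes lay between -0.03 and 0.00. These medians count genes that passed no test, among them the scarce MMP7 and MMP9, so they do not show a rise of the whole set. In 3xSR the middle genes were MMP7 (0.68, SE 0.423) and TIMP1 (0.033), and in MYC-OE MMP10 (0.87) and MMP7 (0.77). Of these only MMP10 in MYC-OE passed. PLAU changed in 1 direction in all 5 comparisons, while MMP1 and TIMP2 changed in all 5 but not always the same way. In a bulk sample, fewer cells that make a transcript and less of it per cell cannot be told apart.

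**Figure D1:**
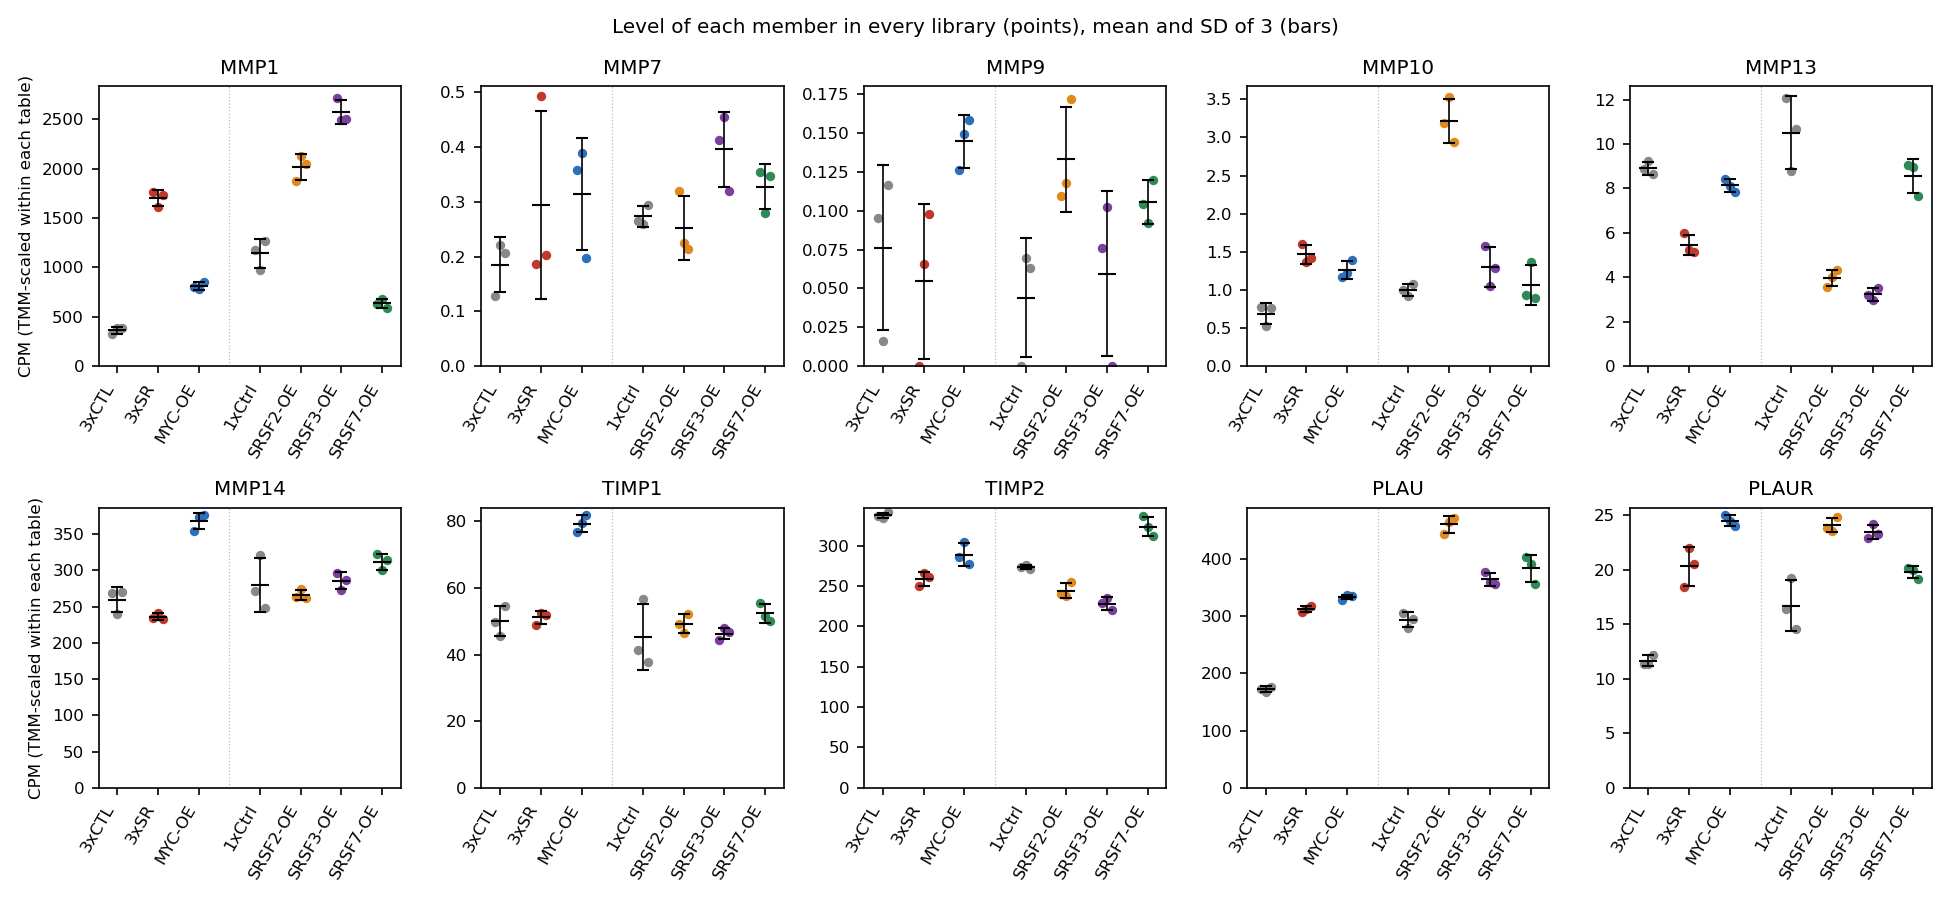
Level of each of the 10 genes in every library, in CPM, on an axis that starts at 0 in each panel. Points are libraries and bars the mean and SD of 3; a dotted line separates the 2 tables, which were scaled separately. MMP1 runs from 325 to 2717 CPM, and its highest group is SRSF3-OE.

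Per length of exon, the genes spanned a wide range. In RPKM (CPM per kilobase of exon, averaged over the 7 groups) MMP1 stood first at 671, followed by PLAU at 112, MMP14 at 64.2, TIMP2 at 49.6 and TIMP1 at 34.6. PLAUR (4.50), MMP13 (2.46) and MMP10 (0.814) were lower, and MMP7 (0.125) and MMP9 (0.0377) were the lowest. MMP1 did not overlap its neighbour in this order, since its lowest group mean (185 RPKM in 3xCTL) was above the highest of PLAU (156 RPKM). Neighbours from PLAU to TIMP1 overlapped in their group means, as did PLAUR with MMP13 and MMP13 with MMP10. MMP1 took between 0.0370% of all counts (3xCTL) and 0.245% (SRSF3-OE).

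MMP1 encodes interstitial collagenase, which cuts fibrillar collagens. It lies on chromosome 11 from 102789920 to 102798160 on the minus strand (GRCh38), as ENSG00000196611.5 in the files. In the first table its level was 325, 385 and 386 CPM in the 3 libraries of 3xCTL, 1765, 1611 and 1732 CPM in those labelled 3xSR, and 799, 783 and 854 CPM in MYC-OE. The groups did not overlap, and 3xSR stood above MYC-OE. The rise was 4.66-fold in the libraries labelled 3xSR (log2 fold change 2.22, SE 0.0738, adjusted p in edgeR = 3.19e-09) and 2.22-fold in MYC-OE (1.15, SE 0.0715, adjusted p in edgeR = 2.18e-07). In the second table MMP1 measured 1181, 978 and 1267 CPM in 1xCtrl, 1873, 2123 and 2051 CPM in libraries with the label SRSF2-OE, 2717, 2493 and 2508 CPM in SRSF3-OE, and 631, 686 and 595 CPM in SRSF7-OE. Again no group overlapped its control, and SRSF7-OE lay on the other side of it. MMP1 rose 1.76-fold in the libraries labelled SRSF2-OE (0.82, SE 0.0937, adjusted p in edgeR = 5.94e-05) and 2.25-fold in SRSF3-OE (1.17, SE 0.0943, adjusted p in edgeR = 1.94e-06). It fell in SRSF7-OE, where 1xCtrl was 1.79-fold higher (-0.84, SE 0.0937, adjusted p in edgeR = 0.000123). Of its 1970 exon bases, 150 are shared with WTAPP1 on the opposite strand, and whether counting used the strand is not given in the sources used here.

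MMP13 encodes collagenase 3, which also cuts fibrillar collagen, type II most readily. Unlike MMP1, it rose in none of the 5 comparisons. Its level was 8.89, 9.23 and 8.64 CPM in 3xCTL and 5.98, 5.25 and 5.16 CPM in the libraries labelled 3xSR, which did not overlap. In 1xCtrl it was 12.1, 8.80 and 10.7 CPM. In the libraries labelled SRSF2-OE it was 3.58, 4.01 and 4.33 CPM, and in SRSF3-OE 3.22, 2.96 and 3.52 CPM, all below the lowest control library. MMP13 fell by 0.71 on the log2 scale in 3xSR (SE 0.0832, adjusted p in edgeR = 6.37e-05), by 1.40 in SRSF2-OE (SE 0.128, adjusted p in edgeR = 1.11e-05) and by 1.70 in SRSF3-OE (SE 0.129, adjusted p in edgeR = 1.26e-06). MYC-OE (8.14 CPM ± 0.295, SD, n = 3) and SRSF7-OE (8.56 ± 0.760) did not pass the test, with log2 fold changes of -0.13 (adjusted p in edgeR = 0.243) and -0.30 (adjusted p in edgeR = 0.126). Without 1xCtrl replicate 2, the SRSF7-OE value was -0.40 and passed (adjusted p in edgeR = 0.0173).

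MMP10 (stromelysin 2) degrades proteoglycans and fibronectin and can activate other metalloproteinase precursors. It was scarce, with 98 to 866 counts in a library. Its level was 0.780, 0.529 and 0.761 CPM in 3xCTL, 1.60, 1.37 and 1.43 CPM in the libraries labelled 3xSR, and 1.17, 1.23 and 1.39 CPM in MYC-OE. In 1xCtrl it was 1.003, 0.928 and 1.08 CPM, and in the libraries labelled SRSF2-OE 3.18, 3.52 and 2.94 CPM, the highest of the 21. MMP10 rose in these 3 lines, 2.12-fold in 3xSR (log2 fold change 1.08, SE 0.173, adjusted p in edgeR = 0.000594), 1.83-fold in MYC-OE (0.87, SE 0.172, adjusted p in edgeR = 0.00189) and 3.20-fold in SRSF2-OE (1.68, SE 0.190, adjusted p in edgeR = 5.57e-05). SRSF3-OE (1.31 CPM ± 0.262, SD, n = 3; 0.38, adjusted p in edgeR = 0.158) and SRSF7-OE (1.07 ± 0.265; 0.084, adjusted p in edgeR = 0.820) overlapped with 1xCtrl.

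MMP7 (matrilysin), a small protease of epithelial cells, and MMP9 (gelatinase B), which cuts denatured collagen and type IV collagen, were the scarcest of the 10. MMP7 had 29 to 110 counts in a library (0.129 to 0.492 CPM) and passed no test against a control, with log2 fold changes from -0.11 in the libraries labelled SRSF2-OE to 0.77 in MYC-OE (adjusted p in edgeR from 0.117 to 0.792). MMP9 had 0 to 38 counts (up to 0.171 CPM), with 0 counts in 3 libraries and 3 counts in 1 more. Its log2 fold changes ran from -0.51 to 1.55 with standard errors of 0.843 to 1.02 and passed no test (adjusted p in edgeR from 0.305 to 0.828). Of the 2336 exon bases of MMP9, 430 are shared with SLC12A5-AS1 on the opposite strand.

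Upstream sequences were found in RefSeq (GRCh38.p14) for 6 of the 10 genes: MMP7, MMP10, MMP14, TIMP1, PLAU and PLAUR. Each window held the 250 bases before a gene start and the 50 after it. They were searched on both strands for the AP-1 motif TGANTCA, the E-box CACGTG bound by MYC and its partner MAX, and the TATA box TATAAA. Of 35116 such windows of all genes, 7.71% held the AP-1 motif, 7.26% the E-box and 11.5% the TATA box. MMP10, MMP7 and PLAUR held an AP-1 motif, and their sequences are given because they show these matches, in capitals; the first 2 also hold TATAAA. The windows of MMP14, TIMP1 and PLAU held none of the 3 motifs. MMP10 and MMP7 lie on chr11:102780579-102780878 and chr11:102530698-102530997, PLAUR on chr19:43670120-43670419, all on the minus strand.
MMP10: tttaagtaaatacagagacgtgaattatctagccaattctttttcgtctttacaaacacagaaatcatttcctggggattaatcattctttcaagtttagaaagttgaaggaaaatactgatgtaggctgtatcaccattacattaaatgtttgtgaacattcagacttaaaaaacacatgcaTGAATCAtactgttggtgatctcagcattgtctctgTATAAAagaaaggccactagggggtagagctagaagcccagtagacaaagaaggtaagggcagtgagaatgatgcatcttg
MMP7: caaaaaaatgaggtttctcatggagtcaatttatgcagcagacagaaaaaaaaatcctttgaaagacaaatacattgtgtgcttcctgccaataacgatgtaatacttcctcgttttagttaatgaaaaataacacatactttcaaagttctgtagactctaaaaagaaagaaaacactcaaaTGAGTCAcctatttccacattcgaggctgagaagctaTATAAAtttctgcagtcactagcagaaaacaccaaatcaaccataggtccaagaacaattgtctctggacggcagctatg
PLAUR: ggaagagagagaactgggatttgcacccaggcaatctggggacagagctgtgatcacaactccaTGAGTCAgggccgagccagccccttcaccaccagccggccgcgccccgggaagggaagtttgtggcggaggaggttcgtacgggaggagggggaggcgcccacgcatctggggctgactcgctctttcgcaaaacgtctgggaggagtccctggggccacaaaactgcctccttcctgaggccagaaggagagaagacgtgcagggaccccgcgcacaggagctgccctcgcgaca
The AP-1 motif began 67 bases before the start in both MMP10 (TGAATCA) and MMP7 (TGAGTCA), and the TATA box 31 and 30 bases before it. In PLAUR the AP-1 motif TGAGTCA began 186 bases before the start. A match is a description of the letters and not a binding site.

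MMP1, MMP7, MMP10 and MMP13 belong to a cluster of 9 metalloproteinase genes on chromosome 11, all on the minus strand, that spans 435 kb from 102520508 to 102955734. Its members had different calls. MMP10, whose start is 17.5 kb from that of MMP1, did not pass the test in SRSF3-OE or SRSF7-OE, where MMP1 changed, and MMP13, 157.6 kb away, fell in 3 lines in which MMP1 rose. MMP3 (stromelysin 1), 45.6 kb from the MMP1 start, rose in the libraries labelled 3xSR from 0.408 CPM ± 0.0652 to 1.87 ± 0.105 (log2 fold change 2.20, SE 0.189, adjusted p in edgeR = 5.02e-06). In SRSF3-OE it rose from 1.25 CPM ± 0.194 to 6.002 ± 0.392 (2.26, SE 0.162, adjusted p in edgeR = 8.11e-07), and in SRSF7-OE it fell by 1.08 on the log2 scale (SE 0.160, adjusted p in edgeR = 0.000928). It did not pass in MYC-OE (0.087, adjusted p in edgeR = 0.760) or in the libraries labelled SRSF2-OE (0.27, adjusted p in edgeR = 0.246). MMP12 (macrophage elastase) fell in all 3 lines of the second table, by 1.44 for SRSF2-OE, 0.84 for SRSF3-OE and 1.03 for SRSF7-OE on the log2 scale (adjusted p in edgeR = 0.00102, 0.0177 and 0.0106). These falls share 1xCtrl, where MMP12 was at 1.38 CPM, against 0.506, 0.767 and 0.673 CPM in the lines and 0.482 CPM in 3xCTL. In the first table it did not pass in 3xSR (0.40, adjusted p in edgeR = 0.156) or MYC-OE (-0.18, adjusted p in edgeR = 0.528). MMP8, MMP20 and MMP27 had too few counts to be tested.

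**Figure D2:**
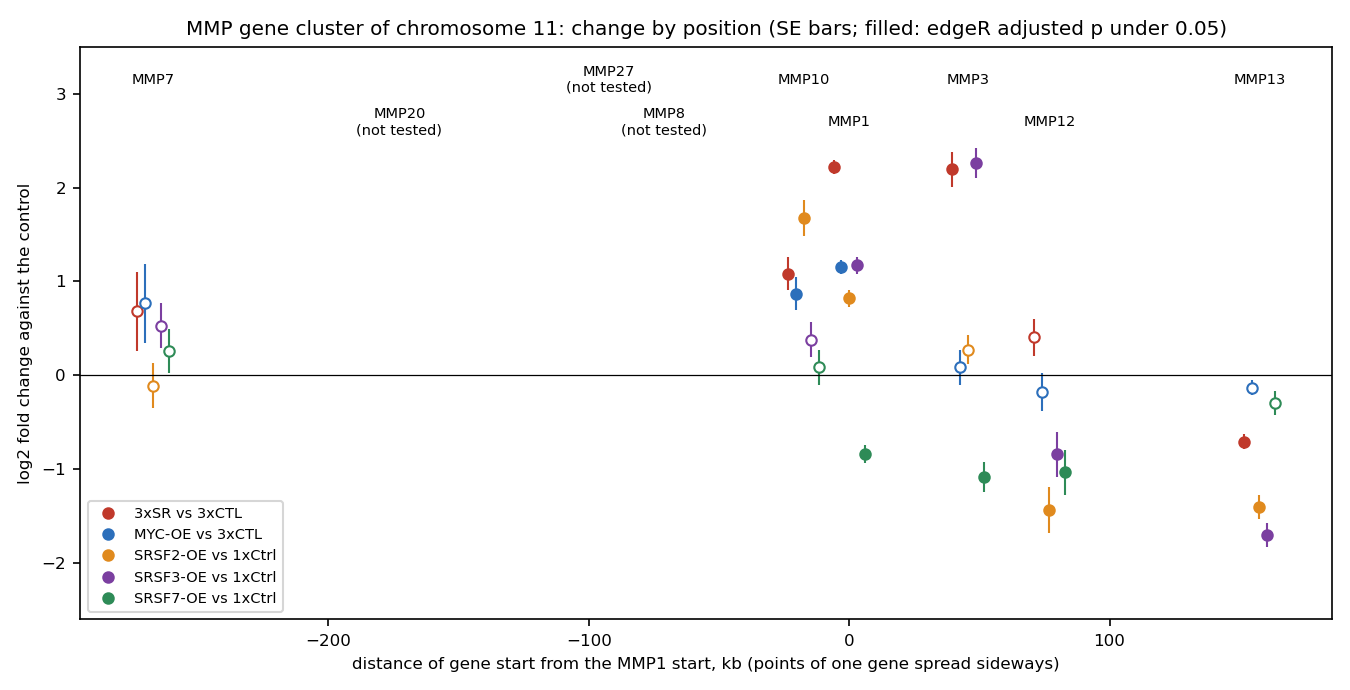
Log2 fold change against the control (vertical axis) of the metalloproteinase genes of the chromosome 11 cluster, by the distance of their start from that of MMP1 in kb (horizontal axis). Points are estimates with SE bars, filled where the edgeR adjusted p is under 0.05, and the 5 comparisons are spread sideways within a gene. MMP1 and MMP13 lie on opposite sides of 0 in 3xSR, SRSF2-OE and SRSF3-OE. They do so in MYC-OE too, where the MMP13 point (-0.13) is not filled.

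MMP14 (membrane type 1 metalloproteinase) is anchored in the cell membrane, cuts collagen there and activates the MMP2 precursor. It passed the test against a control in MYC-OE and in no other line. Its level was 268, 239 and 271 CPM in 3xCTL and 355, 373 and 376 CPM in MYC-OE, with no overlap (1.42-fold, log2 fold change 0.50, SE 0.0553, adjusted p in edgeR = 2.51e-05). The 3xSR libraries measured 236 CPM ± 4.64 (SD, n = 3), and their log2 fold change of -0.14 did not pass (adjusted p in edgeR = 0.0842). Across the other table, 1xCtrl spread from 248 to 321 CPM, its replicate 2 being the highest, and overlapped with all 3 lines (log2 fold changes -0.070, 0.029 and 0.16 in SRSF2-OE, SRSF3-OE and SRSF7-OE; adjusted p in edgeR = 0.594, 0.833 and 0.208). Without that library MMP14 passed in SRSF7-OE (0.28, adjusted p in edgeR = 0.00399), and without 3xCTL replicate 2 it passed as lower in 3xSR (-0.19, adjusted p in edgeR = 0.00317). With the GC trend removed it passed in SRSF3-OE (0.16, adjusted p in edgeR = 0.0349).

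TIMP1, a secreted inhibitor of most metalloproteinases, rose in MYC-OE too. It measured 49.8, 45.6 and 54.5 CPM in 3xCTL and 76.7, 79.4 and 81.8 CPM in MYC-OE, 1.59-fold higher without overlap (log2 fold change 0.67, SE 0.0655, adjusted p in edgeR = 1.03e-05). In the libraries labelled 3xSR its level was 51.1 CPM ± 1.96 (SD, n = 3; 0.033, adjusted p in edgeR = 0.750), a value that became 0.19 (adjusted p in edgeR = 0.00118) with the GC trend of each library removed. In 1xCtrl, replicate 2 was at 56.6 CPM and the other 2 at 41.4 and 37.7 CPM, so the lines of the second table (46.3 to 52.4 CPM on average) overlapped with it and passed no test. Without that library TIMP1 passed in all 3, at 0.31 in the libraries labelled SRSF2-OE, 0.21 for SRSF3-OE and 0.42 for SRSF7-OE (adjusted p in edgeR = 0.00291, 0.0239 and 0.000510). With all libraries and the GC trend removed it passed in SRSF7-OE (0.21, adjusted p in edgeR = 0.0149).

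TIMP2 blocks metalloproteinases and also takes part in the activation of MMP2 on MMP14. Its level was 337, 334 and 341 CPM in 3xCTL, 249.8, 266 and 261 CPM in the libraries labelled 3xSR, and 286, 304 and 277 CPM in MYC-OE. In 1xCtrl it was 274, 276 and 271 CPM, in libraries with the label SRSF2-OE 241, 237 and 255 CPM, in SRSF3-OE 228, 236 and 219.6 CPM, and in SRSF7-OE 336, 323 and 312 CPM. No line overlapped its control, and SRSF7-OE alone stood above it. TIMP2 fell by 0.38 on the log2 scale in 3xSR (SE 0.0494, adjusted p in edgeR = 0.000132), by 0.22 in MYC-OE (SE 0.0494, adjusted p in edgeR = 0.00390), by 0.16 in SRSF2-OE (SE 0.0542, adjusted p in edgeR = 0.0450) and by 0.26 in SRSF3-OE (SE 0.0542, adjusted p in edgeR = 0.00250). It rose by 0.24 in SRSF7-OE (SE 0.0542, adjusted p in edgeR = 0.00853). The changes were small, at most 1.30-fold, and that in SRSF2-OE did not pass with upper-quartile scaling (adjusted p in edgeR = 0.0766), with only the 2 groups in the fit (adjusted p in edgeR = 0.0583) or without SRSF2-OE replicate 2 (adjusted p in edgeR = 0.0600). The SRSF7-OE call did not pass without 1xCtrl replicate 1 (adjusted p in edgeR = 0.0563) or SRSF7-OE replicate 1 (adjusted p in edgeR = 0.0562). TIMP2 shares 198 of its 5633 exon bases with CEP295NL on the same strand, and 367 with another gene on the opposite strand.

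MMP1 and TIMP2 were called in opposite directions in 5 of 5 comparisons against a control. Of 22941 genes tested in both tables, 9 (0.0392%) had calls opposite to those of MMP1 in all 5 comparisons, TIMP2 among them, and 14 (0.0610%) had the same calls as MMP1, itself included. The pair was picked from these same data, so the shares only describe it. The TIMP2 call was lost in 4 of 17 alternatives for SRSF2-OE and in 2 of 17 for SRSF7-OE. The 5 comparisons share 2 controls, so they are not independent of each other. The plot of both genes by library shows the same order: 3xCTL held the lowest MMP1 and the highest TIMP2 group mean, and SRSF3-OE the highest MMP1 and the lowest TIMP2.

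**Figure D3:**
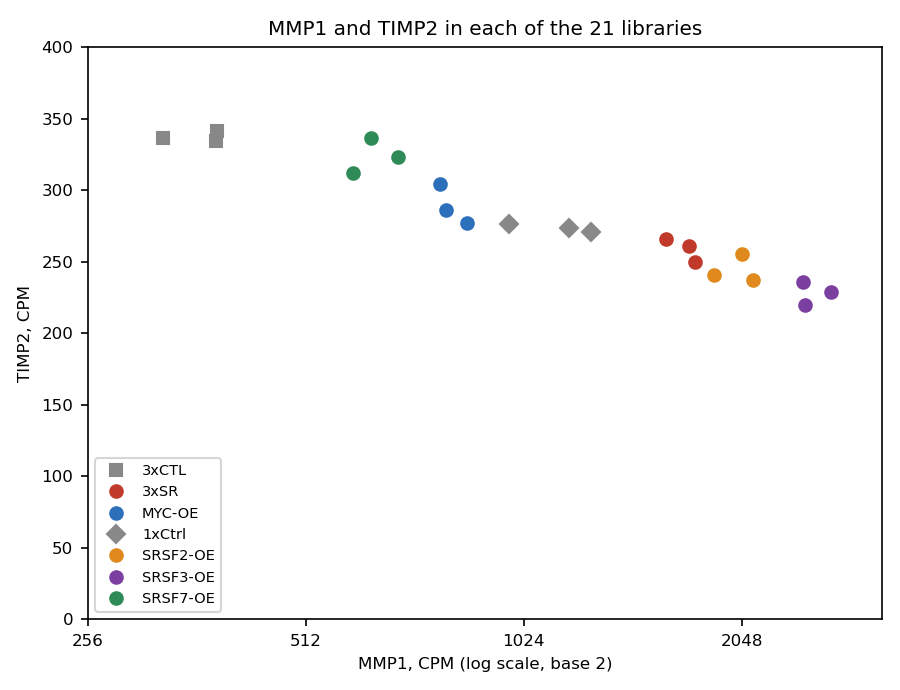
TIMP2 (vertical axis, CPM) against MMP1 (horizontal axis, CPM on a log scale of base 2) in each of the 21 libraries. Each point is a library, and the 2 tables were scaled separately. The 3xCTL libraries (squares) sit at 325 to 386 CPM of MMP1 and 334 to 341 CPM of TIMP2, and the SRSF3-OE libraries at 2493 to 2717 CPM and 219.6 to 236 CPM.

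PLAU, the urokinase-type plasminogen activator, was higher than the control in all 5 comparisons. It lies on chromosome 10 from 73909177 to 73917497. Its level was 173, 168 and 177 CPM in 3xCTL, 308, 312 and 317 CPM in the libraries labelled 3xSR, and 329, 336 and 335 CPM in MYC-OE. In 1xCtrl it was 305, 279.6 and 296 CPM, in libraries with the label SRSF2-OE 444, 465 and 472 CPM, in SRSF3-OE 378, 359.9 and 356 CPM, and in SRSF7-OE 403, 391 and 357 CPM. Every library of every line lay above all those of its control. The rise was 1.81-fold in 3xSR (log2 fold change 0.86, SE 0.0439, adjusted p in edgeR = 7.59e-08), 1.93-fold in MYC-OE (0.95, SE 0.0440, adjusted p in edgeR = 1.88e-08) and 1.57-fold in SRSF2-OE (0.65, SE 0.0616, adjusted p in edgeR = 1.47e-05). It was 1.24-fold in SRSF3-OE (0.31, SE 0.0614, adjusted p in edgeR = 0.00182) and 1.31-fold in SRSF7-OE (0.39, SE 0.0614, adjusted p in edgeR = 0.00140). Of the 22941 genes tested in both tables, 229 (0.998%) were called higher in all 5. PLAU shares 916 of its 2950 exon bases with C10orf55 on the opposite strand, and reads from the 2 cannot be told apart if the strand was not used.

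PLAUR, the receptor that holds PLAU at the cell surface, rose in 4 of the 5 comparisons. It measured 11.4, 11.3 and 12.2 CPM in 3xCTL and 18.4, 21.9 and 20.5 CPM in the libraries labelled 3xSR. In MYC-OE it was 24.99, 24.5 and 23.96 CPM. In 1xCtrl it was 16.4, 19.2 and 14.5 CPM, in libraries with the label SRSF2-OE 23.8, 23.6 and 24.8 CPM, in SRSF3-OE 22.9, 24.1 and 23.2 CPM, and in SRSF7-OE 20.2, 19.97 and 19.2 CPM. Only SRSF7-OE overlapped with its control, through replicate 2 of 1xCtrl. PLAUR rose 1.74-fold in 3xSR (log2 fold change 0.80, SE 0.0714, adjusted p in edgeR = 6.64e-06), 2.102-fold in MYC-OE (1.07, SE 0.0715, adjusted p in edgeR = 4.08e-07), 1.44-fold in SRSF2-OE (0.53, SE 0.0858, adjusted p in edgeR = 0.000782) and 1.40-fold in SRSF3-OE (0.49, SE 0.0858, adjusted p in edgeR = 0.000860). In SRSF7-OE the value was 0.24 (SE 0.0856, adjusted p in edgeR = 0.0702), and without 1xCtrl replicate 2 it was 0.37 and passed (adjusted p in edgeR = 0.000852). The number of the 10 genes called in SRSF7-OE was 3 with that library and 7 without it (5 higher, 2 lower). Over all genes, 4214 were called with it and 7321 without it. With the GC trend of each library removed, 5 of the 10 were called in both cases, beside 7002 and 7017 of all genes.

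**Figure D4:**
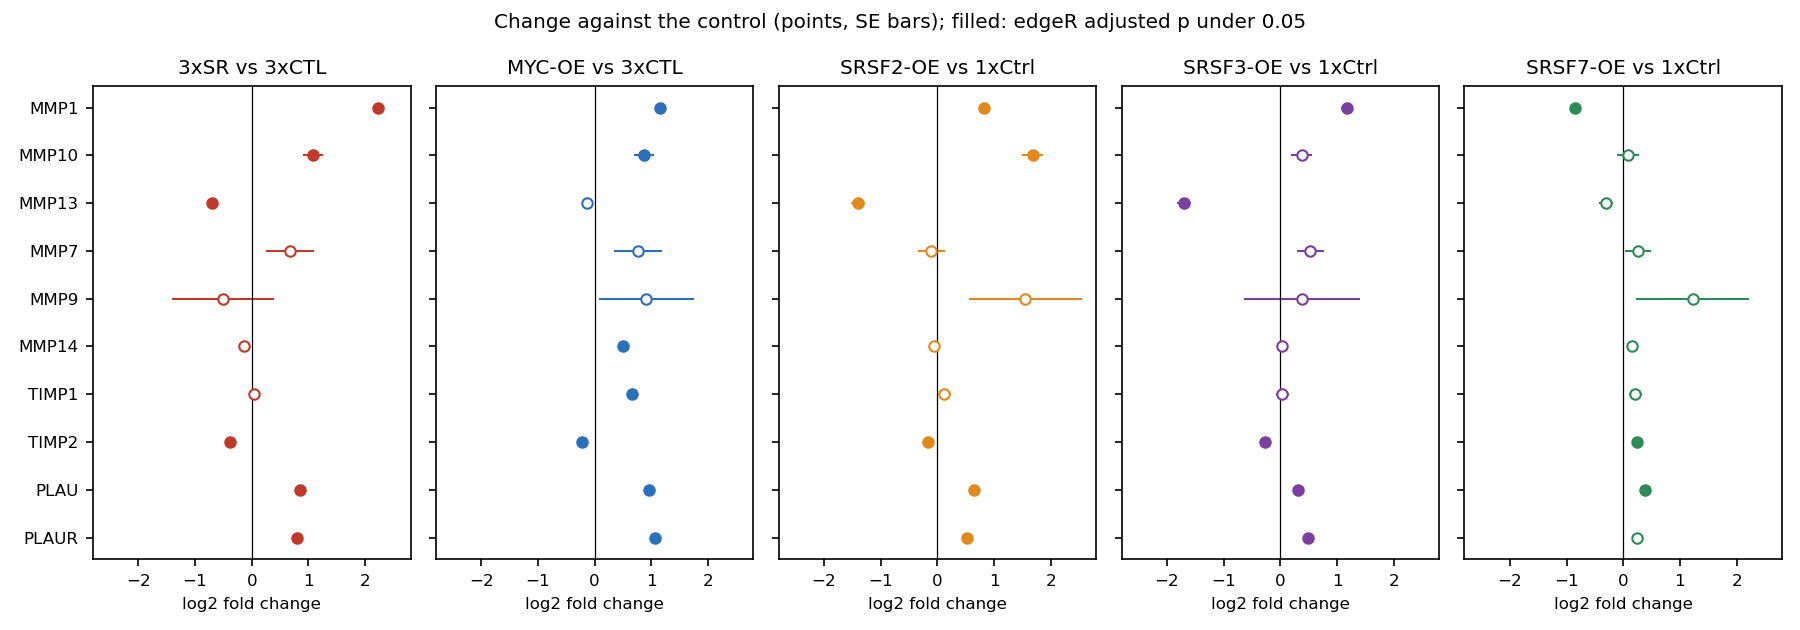
Log2 fold change of each of the 10 genes against the control (horizontal axis) in the 5 comparisons, 1 panel each. Points are estimates with SE bars, filled where the edgeR adjusted p is under 0.05. PLAU is filled and to the right of 0 in every panel, while MMP1 is to the left of 0 in SRSF7-OE alone.

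MYC-OE and 3xSR were compared directly, as the series title sets them side by side. Of the 10 genes 6 differed (5 higher in MYC-OE, 1 lower), and 34.9% of all genes did; CPM did not overlap for 8 (53.2% of all genes). MMP1 was lower in MYC-OE than in the libraries labelled 3xSR by 1.07 on the log2 scale (SE 0.0713, adjusted p in edgeR = 1.40e-06). MMP14 was higher by 0.64 (SE 0.0554, adjusted p in edgeR = 8.40e-06), TIMP1 by 0.63 (SE 0.0656, adjusted p in edgeR = 2.94e-05) and MMP13 by 0.57 (SE 0.0830, adjusted p in edgeR = 0.000284). TIMP2 (0.16, adjusted p in edgeR = 0.0258) and PLAUR (0.27, adjusted p in edgeR = 0.0113) were also higher, but with the GC trend removed neither passed (0.069 and 0.14, adjusted p in edgeR = 0.222 and 0.0720). The TIMP2 call was also lost without 3xSR replicate 1 or 3 or MYC-OE replicate 1 or 2 (adjusted p in edgeR from 0.0639 to 0.126). PLAU did not pass (0.094, SE 0.0436, adjusted p in edgeR = 0.117). MYC itself was higher than in 3xCTL in both lines.

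The 3 single lines were set against each other as well, where CPM did not overlap for 7 genes between SRSF3-OE and SRSF2-OE (47.7% of all genes), 6 between SRSF7-OE and SRSF3-OE (52.6%) and 7 between SRSF7-OE and SRSF2-OE (46.0%). SRSF7-OE against SRSF3-OE gave 4 differences (2 higher, 2 lower; 35.2% of all genes), against the libraries labelled SRSF2-OE 6 (2 higher, 4 lower; 24.2%), and SRSF3-OE against SRSF2-OE 3 (1 higher, 2 lower; 26.8%). MMP1 was lower in SRSF7-OE than in SRSF3-OE by 2.01 on the log2 scale (SE 0.0966, adjusted p in edgeR = 1.55e-08) and than in SRSF2-OE by 1.66 (SE 0.0955, adjusted p in edgeR = 5.51e-07). MMP13 went the other way, higher in SRSF7-OE than in SRSF3-OE by 1.40 (SE 0.128, adjusted p in edgeR = 3.30e-06) and than in SRSF2-OE by 1.11 (SE 0.127, adjusted p in edgeR = 5.80e-05). TIMP2 was higher in SRSF7-OE by 0.51 and 0.41 (adjusted p in edgeR = 1.29e-05 and 0.000180). MMP10 was highest in the libraries labelled SRSF2-OE, and lower by 1.30 in SRSF3-OE (SE 0.188, adjusted p in edgeR = 0.000261) and by 1.60 in SRSF7-OE (SE 0.189, adjusted p in edgeR = 7.43e-05). PLAU was also highest there, lower by 0.34 in SRSF3-OE (adjusted p in edgeR = 0.00134) and by 0.26 in SRSF7-OE (adjusted p in edgeR = 0.00724). MMP1 was higher in SRSF3-OE than in SRSF2-OE by 0.35 (SE 0.0932, adjusted p in edgeR = 0.0133), a call that was lost with upper-quartile scaling (0.29, adjusted p in edgeR = 0.0546). PLAUR was lower in SRSF7-OE than in SRSF3-OE (-0.24, adjusted p in edgeR = 0.0402) and SRSF2-OE (-0.28, adjusted p in edgeR = 0.0282), but leaving out any library of the groups compared lost both calls.

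The change in 3xSR was compared with the sum of the 3 single changes in a joint fit of both tables, in which 19.9% of 25013 genes departed from the sum (11.3% above, 8.59% below). The median departure over all genes was 0.14, and 1xCtrl enters the sum 3 times. The effects start from different controls, with MMP1 3.13-fold and PLAU 1.70-fold higher in 1xCtrl than in 3xCTL. SRSF2 was not higher than the control in the libraries labelled 3xSR or SRSF2-OE, and MYC was higher by 0.75 in 3xSR. The departures thus compare libraries with these labels, and their cause was not tested. The changes and sums below come from the separate fits, and the departures from the joint fit. A change less its sum is therefore close to the departure but not equal to it. MMP1 rose by 2.22 in the libraries labelled 3xSR, where the single changes summed to 1.15, a departure of 1.10 (SE 0.221, adjusted p in edgeR = 0.00153). MMP13 fell by 0.71, where the sum was -3.40, a departure of 2.72 (SE 0.271, adjusted p in edgeR = 1.61e-06). PLAU rose by 0.86, below a sum of 1.35, a departure of -0.46 (SE 0.131, adjusted p in edgeR = 0.0164). Without 1xCtrl replicate 2 the PLAU departure did not pass (-0.39, adjusted p in edgeR = 0.0583), nor did it with upper-quartile scaling (adjusted p in edgeR = 0.0857). Without that library MMP14 (-0.58), TIMP1 (-0.91) and PLAUR (-0.79) passed as well (adjusted p in edgeR = 0.0150, 0.00146 and 0.00418). The count of departures was then 5 in place of 3, and over all genes 6446 departed in place of 4977.

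The controls of the 2 tables were also set side by side. MMP1 was 3.13-fold, PLAU 1.70-fold, MMP10 1.46-fold and PLAUR 1.43-fold higher in 1xCtrl than in 3xCTL, and TIMP2 was at 0.811 times its 3xCTL level. MMP14 (1.08-fold) and TIMP1 (0.905-fold) were closer. The control's construct, the table and any batch cannot be told apart here, and the tables were scaled separately.

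Other genes of the pathway were taken from 8 lists with 102 genes, of which 91 were tested in the first table and 93 in the second. Of them 31 rose and 24 fell in the libraries labelled 3xSR, 47 rose and 12 fell in MYC-OE, 30 rose and 21 fell in those labelled SRSF2-OE, 23 rose and 22 fell in SRSF3-OE, and 28 rose and 10 fell in SRSF7-OE. Over all genes tested the shares higher and lower were 15.3% and 13.7%, 18.0% and 17.3%, 11.6% and 11.9%, 15.0% and 14.1%, and 9.03% and 8.26% in the same order. Among 15 further genes of the plasminogen system (12 tested), 4 rose in 3xSR, 7 in MYC-OE, 6 for SRSF2-OE, 4 for SRSF3-OE and 4 for SRSF7-OE, and 1 fell in each. SERPINB2 (plasminogen activator inhibitor 2) rose in the libraries labelled 3xSR from 30.4 CPM ± 0.781 to 75.9 ± 2.41 (log2 fold change 1.32, SE 0.0477, adjusted p in edgeR = 5.22e-09). It rose by 1.02 in MYC-OE (adjusted p in edgeR = 1.88e-08), by 0.92 in those labelled SRSF2-OE (adjusted p in edgeR = 1.44e-05) and by 1.86 in SRSF3-OE (adjusted p in edgeR = 3.56e-08). PLAT, the tissue-type activator, rose by 0.33 in 3xSR and 0.75 in MYC-OE and fell by 0.57 in the libraries labelled SRSF2-OE. F3 (tissue factor) rose by 0.31 for SRSF2-OE and 0.43 for SRSF3-OE and fell by 0.30 in SRSF7-OE.

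Of 17 other metalloproteinases (12 tested in the first table, 13 in the second), 4 rose in 3xSR, 5 in MYC-OE, 3 for SRSF2-OE, 1 for SRSF3-OE and 2 for SRSF7-OE, and 2, 1, 3, 4 and 3 fell. Over all genes tested, 15.3%, 18.0%, 11.6%, 15.0% and 9.03% rose and 13.7%, 17.3%, 11.9%, 14.1% and 8.26% fell in that order. MMP2 (gelatinase A), the target of MMP14 and TIMP2, rose from 9.85 CPM ± 0.222 to 37.5 ± 0.913 in MYC-OE (log2 fold change 1.93, SE 0.0746, adjusted p in edgeR = 4.73e-09). It also rose by 0.25 in 3xSR (adjusted p in edgeR = 0.0242), by 0.76 in the libraries labelled SRSF2-OE (adjusted p in edgeR = 0.000356) and by 0.99 in SRSF7-OE (adjusted p in edgeR = 0.000132). MMP16 (a membrane metalloproteinase) fell in all 5 comparisons, by 2.14 in MYC-OE (SE 0.0953), 0.50 in 3xSR, 0.98 for SRSF2-OE, 0.90 for SRSF3-OE and 0.45 for SRSF7-OE (adjusted p in edgeR from 1.45e-08 to 0.0363). Of 4 other inhibitors (3 tested), TIMP3 rose by 0.59 in 3xSR and 0.42 in MYC-OE and fell by 0.33 in SRSF2-OE, while RECK, at 0.245 CPM in 3xCTL, rose by 1.69 in 3xSR, 2.36 in MYC-OE and 0.89 in SRSF7-OE. Among 7 partners and activators, PCSK5, a proprotein convertase, rose by 1.90 in 3xSR (SE 0.0788) and 2.38 in MYC-OE (SE 0.0798). LCN2, which binds MMP9, fell by 1.19, 0.91, 0.66 and 1.86 in 3xSR, MYC-OE, SRSF2-OE and SRSF3-OE and rose by 1.17 in SRSF7-OE.

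Of 12 AP-1 and ETS transcription factors, all tested, 6 rose in 3xSR, 7 in MYC-OE, 7 for SRSF2-OE, 6 for SRSF3-OE and 4 for SRSF7-OE, and 2, 1, 1, 1 and 0 fell. For this list and those below, 15.3%, 18.0%, 11.6%, 15.0% and 9.03% of all genes rose. Those that fell were 13.7%, 17.3%, 11.9%, 14.1% and 8.26% of all genes, in the same order. FOSL1, an AP-1 subunit, rose in the libraries labelled 3xSR from 26.2 CPM ± 3.01 to 52.9 ± 0.625 (log2 fold change 1.01, SE 0.0797, adjusted p in edgeR = 2.44e-06). It rose by 0.96 in MYC-OE (SE 0.0796, adjusted p in edgeR = 2.33e-06), 1.31 in the libraries labelled SRSF2-OE (SE 0.0845, adjusted p in edgeR = 8.80e-07) and 1.05 in SRSF3-OE (SE 0.0840, adjusted p in edgeR = 1.77e-06). It rose by 0.29 in SRSF7-OE (adjusted p in edgeR = 0.0297). ELF3, an epithelial ETS factor, fell by 0.42 in 3xSR, 0.38 for SRSF2-OE and 1.45 for SRSF3-OE, and rose by 0.25 in MYC-OE and 0.77 in SRSF7-OE. Of 18 epithelial serine proteases and inhibitors, 5, 10, 5, 3 and 5 rose and 7, 3, 6, 7 and 2 fell in 3xSR, MYC-OE, SRSF2-OE, SRSF3-OE and SRSF7-OE. PI3 (elafin, an elastase inhibitor) rose by 2.34 in 3xSR, 2.61 in MYC-OE and 1.32 in the libraries labelled SRSF2-OE. TMPRSS4 fell by 2.28 in SRSF3-OE and rose by 0.33 in MYC-OE and 0.48 in SRSF7-OE. Of 16 ADAM and ADAMTS genes, 14 were tested in the first table and 15 in the second. Among them 3, 4, 3, 5 and 1 rose and 4, 3, 6, 3 and 3 fell in the same order. ADAM8 rose 2.83-fold in 3xSR and 4.66-fold in MYC-OE. Of 13 cathepsins and cystatins, 5, 7, 5, 3 and 8 rose and 5, 2, 2, 3 and 1 fell. CTSH (cathepsin H) fell by 0.90 in 3xSR, 0.25 in MYC-OE, 0.43 for SRSF2-OE and 1.11 for SRSF3-OE, and rose by 0.35 in SRSF7-OE.

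For each gene, those with the most similar pattern were taken by Pearson's r over the 21 libraries, on log2 CPM less the mean of the own control, among 11272 genes with at least 5 CPM. The libraries of a group share their line and each line its control, so r is a description. TRHDE-AS1 (r = 0.98) and HAS3 (0.98), which makes hyaluronan, were most like MMP1. PIM1 (0.98) and CAMK2N1 (0.97) were most like PLAU, and FGFR1 (0.99) and G0S2 (0.96) most like PLAUR. EMP2 (0.97) and FAXDC2 (0.96) were nearest to MMP13, MEST (0.95) and CITED2 (0.94) to TIMP2, GALNT2 (0.96) and TMEM9 (0.94) to MMP14, and B4GALT3 (0.96) and MBOAT7 (0.94) to TIMP1. For the scarcer genes r was lower, at 0.89 for SRSF6 and BAG3 with MMP10, 0.76 for USP30 with MMP7 and 0.74 for DDT with MMP9.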

How the data were processed

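The authors deposited 2 tables of whole-number counts per gene, 1 column per library. Per the labels, DNase-treated RNA was made into polyA-selected stranded libraries and sequenced as read pairs. Trimmomatic 0.39, STAR, StringTie 2.1.3b and GRCh38.p13 are named, per the submitters' processing notes. How StringTie output became counts, and whether the strand was used, are not given in the sources used here. The members and lists were chosen with earlier results of these data known.

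Groups and replicate numbers came from the titles. The test of the deposited counts was that of edgeR 4.0.16 in R 4.3.3 (filterByExpr with a minimum count of 10 and a minimum total of 15, TMM, robust quasi-likelihood F test, Benjamini-Hochberg adjustment over all genes of the table, threshold 0.05), each table fitted over all its groups. CPM and standard errors were computed from these fits, the SE as the log2 fold change over the square root of F. Symbols matched 42044 of 60668 identifiers, and GENCODE 29 (GRCh38) gave positions, exon length and GC content. Its release may differ from that used for counting. The 21 replicate pairs held 0 identical ones and differed by more than counting error.

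The text names the 10 members, from each list genes with the highest or lowest significant log2 fold change (at least 1 CPM, no overlap), and for each member up to 2 genes with the highest r (at least 5 CPM). Values of such a gene in other comparisons, and of the neighbours MMP3 and MMP12, were chosen after they were seen. Alternatives were other scalings (RLE, upper quartile, total counts alone), filters (none, or 10 counts in every library), DESeq2 1.42.0, limma-voom (limma 3.58.1), only the groups compared, the replicate block, removal of each library's GC trend, and leaving out each replicate. The last 2 together, for 1xCtrl replicate 2, were added after seeing the data. The tests were tried on simulated counts first.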

Additional observations from a re-analysis of the deposited data

Results flagged for a closer look

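The effect of SRSF7-OE on MMP1 went against that of the other single lines. MMP1 rose by 1.17 in SRSF3-OE and by 0.82 in the libraries labelled SRSF2-OE, and fell by 0.84 in SRSF7-OE, all on the log2 scale. The direct difference was -2.01 between SRSF7-OE and SRSF3-OE (edgeR adjusted p = 1.55e-08) and -1.66 between SRSF7-OE and SRSF2-OE (edgeR adjusted p = 5.51e-07), and every library of SRSF7-OE lay below every library of the other 2 lines.

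TIMP2 had the reverse pattern. Its direct difference was 0.51 between SRSF7-OE and SRSF3-OE (edgeR adjusted p = 1.29e-05) and 0.41 between SRSF7-OE and SRSF2-OE (edgeR adjusted p = 0.000180), where TIMP2 had changed by 0.24 in SRSF7-OE, -0.26 in SRSF3-OE and -0.16 in SRSF2-OE against 1xCtrl. These items were picked because each line differed from 1xCtrl in opposite directions. A direct difference between such lines follows largely from the picking, so its p-value adds no separate support. The direct differences compare the lines themselves, while their spread was estimated over all groups of the table, 1xCtrl included.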

How the results depend on the processing

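Of 824 alternative values of the members against a control, 777 kept their direction and side of the threshold, 6 lost their call, 15 gained one and 26 changed sign. Between lines and for additivity the numbers were 593, 548, 28, 11 and 6. They leave out MMP7 and MMP9 and, for additivity, all members but MMP1, MMP13 and PLAU, which were called there. Additivity calls gained by other members were therefore not counted. None of the 32 values that changed sign was called in either fit. For SRSF3-OE against SRSF2-OE, 5 members were called in place of 3 with total counts alone and with the GC trend removed. Over all genes 6635 and 8433 were then called, in place of 6523. For SRSF7-OE against 1xCtrl, 5 members were called in place of 3 with the GC trend removed or with that and without 1xCtrl library 2. There 7002 and 7017 of all genes were called, in place of 4214. The cause was not tested. Leaving out each replicate gave 6 to 7 members for 3xSR, 7 for MYC-OE and 5 to 7 for SRSF2-OE. It gave 5 to 6 for SRSF3-OE and 2 to 7 for SRSF7-OE. Over all genes, the same fits called 4909 to 9204, 6556 to 9009, 4741 to 7545, 5555 to 8064 and 2685 to 7321, in that order. Between lines, 5 to 6 members were called for MYC-OE against 3xSR and 3 to 4 for SRSF3-OE against SRSF2-OE. For SRSF7-OE it was 3 against SRSF3-OE and 5 against SRSF2-OE. Over all genes these were 6068 to 6887, 5180 to 6353, 6934 to 7760 and 4378 to 5335. For additivity it was 3 to 5 members, and 3240 to 6446 of all genes. With the replicate number as a block 5 members were called in SRSF2-OE, where TIMP2 did not pass (edgeR adjusted p = 0.0854). For SRSF7-OE against SRSF3-OE 3 were called, where PLAUR did not pass (edgeR adjusted p = 0.0521). The block changed no other call of a member. Libraries with the same number did not deviate together (mean r from -0.107 to 0.0118). With 3 libraries per group this cannot show whether the numbers pair the libraries.

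Signs changed as follows. With the GC trend removed, MMP14 was 0.050 in 3xSR, PLAU -0.018 for MYC-OE against 3xSR, TIMP1 0.00017, TIMP2 0.012 and PLAUR 0.053 for SRSF3-OE against SRSF2-OE, and MMP14 -0.062 and PLAU -0.058 for SRSF7-OE against SRSF3-OE. In SRSF3-OE, MMP14 and TIMP1 were -0.032 and -0.026 after upper-quartile scaling, -0.084 and -0.080 when scaled by total counts alone, -0.025 and -0.026 with no filter, and -0.011 and -0.010 with only the groups compared, and MMP9 was -0.093 with limma-voom. Leaving out a replicate gave ranges across 0: MMP9 -1.17 to 0.089 and TIMP1 -0.029 to 0.093 in 3xSR, MMP14 -0.20 to 0.033 and TIMP1 -0.042 to 0.31 in SRSF2-OE, MMP14 -0.10 to 0.13, MMP9 -0.32 to 0.91 and TIMP1 -0.14 to 0.21 in SRSF3-OE, and MMP10 -0.15 to 0.17 in SRSF7-OE. MMP7 and MMP9 rest on 0 to 110 counts in a library.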
